A study of Mus musculus with 24 samples.

Results

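The goblet cell mucus genes described here were 7 named genes, Muc1, Muc2, Tff3, Fcgbp, Agr2, Clca3 and Spdef, and they were found on the arrays by an exact match of the gene name. Under these names the array carried 6 of the 7 genes with 7 probes, out of 41174 probes in all. Muc1 had 2 probes and the other genes 1 each. Fcgbp was not a gene name on this array, but 2 probes listed under an Ensembl transcript carried Fcgbp in their description, and their values are given beside the members and outside every count of members. The array's Clca3 is the gene now called Clca1 in RefSeq, and the array's own Clca1 is another gene (now Clca3a1), so the array's names are kept throughout.

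Goblet cells are the secretory cells of the intestinal lining that make and release mucus. Muc2 is the gel-forming mucin that builds the mucus layer of the colon, and Fcgbp, Clca3 and Tff3 (trefoil factor 3) are secreted with it. Agr2 is a protein disulfide isomerase of the endoplasmic reticulum that is needed to fold mucin, and Spdef is a transcription factor that drives goblet cell maturation. Muc1 is a membrane-bound mucin of many epithelia. The liver has no goblet cells, so a comparison of colon with liver shows how far each probe follows the tissue that holds them.

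All samples came from 12 female C57BL/6 mice killed at 12 weeks of age, and colon and liver of each mouse were hybridised, which gave 24 arrays. The mothers of all mice ate HF-Low, which was high in fat and held little selenium and folate, from 7 days before mating through gestation and lactation. At weaning, at about 28 days, 6 offspring stayed on that diet (HF-Low-Low) and 6 changed to one as high in fat but sufficient in both nutrients (HF-Low-Suf). Every group analysed here thus shares the high fat content and the maternal diet. RNA was taken from whole colon and whole liver. In such bulk samples, fewer goblet cells and less RNA per goblet cell cannot be told apart.

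Each array carried a sample in Cy3 and a common reference in Cy5, which the labels give as a pool of colon and liver RNA of all mice and the study's methods as one of intestinal and liver RNA, and values are the log2 ratio of sample to reference. A value of 0 means the same normalised signal as the pool. The ratio of 1 probe can be compared between samples but not with that of another probe. Arrays lay on 6 slides of 4, with each of the 4 groups once on a slide. Scanning took 2 days, with 3 slides on each. The median signal was 3.78 to 7.20 times the local background in Cy3. In Cy5 it was 5.41 to 7.54 times the background on 22 arrays and 12.7 and 18.1 times on 1 liver and 1 colon array of HF-Low-Suf. The tissue labels held against marker genes: 8 of 9 absorptive colonocyte markers were higher in colon, with Aqp8 as the exception, and 5 of 6 hepatocyte markers were higher in liver, with Hnf4a as the exception. The mean log2 ratio of the hepatocyte markers ran from -3.02 to -2.32 over the 12 colons and from 1.26 to 2.05 over the 12 livers.

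The probes and the upstream sequences of the genes are shown because every value below rests on 1 short stretch of each transcript. The middle 30 bases (bases 16 to 45) of each 60-base probe are given 5′ to 3′, with the probe's position in build mm7 as the array files list it.
Muc2, chr7:138181839-138181898, plus strand: ggagatttcctacaatggctgcaccaagaa
Tff3, chr17:29320548-29320607, minus strand: aaaggagccaggagtcctgaagaataaaga
Clca3, chr3:144897653-144897712, minus strand: tttagacttcctgtagggggcggtatagta
Agr2, chr12:33843528-33843587, plus strand: ggcagaagcactgtggacttgcagattaca
Spdef, chr17:25900336-25900395, minus strand: atagacagccactgatctagggatacacat
Muc1, main probe, chr3:89357452-89357511, plus strand: attttctaccttctccagtaacagttcacc
Muc1, other probe, chr3:89357590-89357747, plus strand: gaggaacatttctggattgtttctgcagat
Fcgbp by description, probe 1, chr7:25054396-25054455, plus strand: gggaccaaaccaacgacgcatatggttctc
Fcgbp by description, probe 2, chr7:25051462-25054256, plus strand: gcatgggtgaatggtctccgcgtggatctc
The second Muc1 probe and the second Fcgbp probe cover 158 and 2795 bases of genome with 60 bases of probe, so each spans at least 1 intron. GC content of the probes lay between 36.7% and 55.0%.

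RefSeq's promoter table (GRCm38.p6, a later build than that of the probes) held 5 of the 7 genes, Muc1, Muc2, Agr2, Spdef and Fcgbp. The 250 bases before the start of 3 genes that were higher in colon are printed, with capitals on 5 short motifs read on both strands: TATAA (TATA box core), GATAA (GATA factors), CAGCTG (an E-box), GTTTAC (forkhead core) and TTTATG (CDX factors).
Muc2, chr7:141690090-141690339, plus strand: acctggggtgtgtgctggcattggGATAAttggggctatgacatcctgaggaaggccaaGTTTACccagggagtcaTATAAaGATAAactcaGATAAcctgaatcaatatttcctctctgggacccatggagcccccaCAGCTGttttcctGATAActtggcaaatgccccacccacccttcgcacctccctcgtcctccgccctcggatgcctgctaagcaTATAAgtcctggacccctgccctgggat
Agr2, chr12:35992675-35992924, plus strand: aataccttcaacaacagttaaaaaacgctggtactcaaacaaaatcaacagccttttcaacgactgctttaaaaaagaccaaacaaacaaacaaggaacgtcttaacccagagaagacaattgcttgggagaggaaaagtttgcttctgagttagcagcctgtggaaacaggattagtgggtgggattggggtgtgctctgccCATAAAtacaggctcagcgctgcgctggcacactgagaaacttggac
Spdef, chr17:27728952-27729201, minus strand: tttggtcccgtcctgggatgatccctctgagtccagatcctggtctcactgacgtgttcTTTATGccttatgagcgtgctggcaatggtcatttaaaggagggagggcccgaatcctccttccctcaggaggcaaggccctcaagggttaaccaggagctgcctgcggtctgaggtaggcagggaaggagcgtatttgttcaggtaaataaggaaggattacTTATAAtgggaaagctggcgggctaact
The letters TATAA lay 28 bases before the start of Muc2, 27 before that of Spdef, 28 before that of Fcgbp and 31 before that of Muc1, and 22.8% of all 32851 promoters of this length held them anywhere. Muc2 held GATAA at 4 places, a motif found in 22.6% of promoters, and it was the only one of the 5 with GTTTAC, found in 6.92%. CAGCTG stood in Muc2 and Fcgbp and in 13.0% of promoters. TTTATG stood in Spdef and, on the opposite strand, in Agr2, and in 10.8% of promoters. The start used for Spdef lies inside the annotated gene, so it is that of a shorter transcript. These are matches of letters, and no binding was measured here.

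The first comparison asked how the genes differ between the tissues. Of the 6 members on the array 5, Agr2, Clca3, Tff3, Muc2 and Spdef, were higher in colon than in liver in every mouse. The difference was 22.7-fold to 122-fold for the 4 genes whose probes were also well above background in every liver, and Spdef was near background there, so that no fold is given for it. Muc1 was not well above background in either tissue. Over all probes, 12.2% were higher in colon by the same threshold, a difference of over 1.5-fold at a limma adjusted P under 0.05, and 23.5% passed it in either direction. The median difference of the members was 4.78 on the log2 scale against -0.02 for all probes. Signs here are those of sample over reference as the labels give the dyes, and they run opposite to the signs the study gives for its diet comparison.

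Agr2, the mucin-folding enzyme, showed the widest difference among the members. Its log2 ratio had a lowest value of 0.42, a median of 1.38 and a highest of 1.57 in HF-Low-Low colons, and 0.92, 1.43 and 1.69 in HF-Low-Suf colons. In livers the lowest, median and highest were -6.34, -5.84 and -4.99 on HF-Low-Low and -6.42, -5.66 and -4.54 on HF-Low-Suf. Colons and livers did not overlap, and the gap between the lowest colon and the highest liver was wider than the range within either tissue. Agr2 was 122-fold higher in colon (log2 difference 6.93 ± 0.18 SE, 12 mice, limma adjusted P = 1.19e-21). Its probe was well above background on all 24 arrays, so the liver values were measured ones.

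Clca3, whose product is secreted with mucus and acts on it as a protease, behaved alike. Its log2 ratio was -1.19, -0.67 and -0.19 (lowest, median, highest) in HF-Low-Low colons and -0.85, -0.73 and -0.03 in HF-Low-Suf colons. The livers gave -7.95, -7.45 and -6.59 on HF-Low-Low and -7.99, -7.52 and -6.37 on HF-Low-Suf. The difference was 6.76 ± 0.18 SE, a 108-fold higher ratio in colon (limma adjusted P = 2.27e-21), again with no overlap. All 12 colons, like all 12 livers, lay below the reference for this probe. In raw Cy3 signal the 12 colons lay between 35823 and 109574 and the 12 livers between 378.3 and 642.0.

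Tff3, a small trefoil peptide, and Muc2, the gel-forming mucin, followed. Tff3 had lowest, median and highest log2 ratios of -0.04, 1.22 and 1.76 in HF-Low-Low colons and 0.74, 1.11 and 1.40 in HF-Low-Suf colons. In livers they were -4.48, -4.01 and -3.53 on HF-Low-Low and -4.56, -3.92 and -3.40 on HF-Low-Suf. One HF-Low-Low colon, replicate 1, stood below the other 11 in Tff3 but far above all livers, and the difference between tissues was 5.06 ± 0.17 SE or 33.4-fold (limma adjusted P = 6.36e-19). Muc2 gave -0.03, 1.33 and 1.81 in HF-Low-Low colons and 1.02, 1.75 and 2.0 in HF-Low-Suf colons. Its livers lay at -3.57, -3.07 and -2.88 on HF-Low-Low and at -3.44, -3.09 and -2.79 on HF-Low-Suf. Here too 1 HF-Low-Low colon, replicate 4, was the lowest, and all 12 colons stayed above all 12 livers. The Muc2 difference was 4.50 ± 0.16 SE or 22.7-fold (limma adjusted P = 1.76e-18). The Muc2 probe was well above background on every liver array, at raw Cy3 signals of 1003 to 1678 against 32774 to 96589 in the colons.

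Spdef, the transcription factor of the set, was dimmer. Its lowest, median and highest log2 ratios were 1.05, 1.90 and 2.21 in HF-Low-Low colons and 1.48, 1.84 and 2.03 in HF-Low-Suf colons, where the probe was well above background on all 12 arrays. In livers they were -1.95, -1.46 and -0.51 on HF-Low-Low and -2.23, -1.47 and -0.44 on HF-Low-Suf, and the probe was well above background on 2 of 12 liver arrays only. Colons and livers did not overlap. The fitted log2 difference was 3.15 ± 0.22 SE (limma adjusted P = 2.39e-12). The liver side rests mostly on signals near background, so the direction is measured better than the size. The size of some of these differences moved by over 1.5 times with the processing. With the signals processed by Feature Extraction the log2 difference was 4.59 for Spdef and 7.37 for Clca3, and with the Cy3 channel alone 5.43 for Muc2 and 7.56 for Agr2.

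Muc1 could not be measured in these tissues. Its main probe was well above background on 0 of 12 colon arrays and 1 of 12 liver arrays, and its other probe on none of the 24. No fold change is given for it. The log2 ratios of the main probe ran from -1.68 to 0.08 in colons and from -0.80 to 0.40 in livers, so the tissues overlapped.

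The 2 probes that carry Fcgbp by description, an abundant mucus protein that binds the Fc part of IgG, lay on the same side as the members. Probe 1 ran from -1.03 to 0.74 in the 12 colons and from -4.21 to -3.20 in the 12 livers, and probe 2 from -1.20 to 1.14 and from -4.47 to -2.90. Both were well above background on all 24 arrays and did not overlap between tissues. Their differences were 3.83 ± 0.17 SE, or 14.2-fold, and 4.04 ± 0.23 SE, or 16.4-fold, with limma adjusted P of 1.34e-16 and 3.49e-14, and so the 2 probes gave the same picture.

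**Figure D1:**
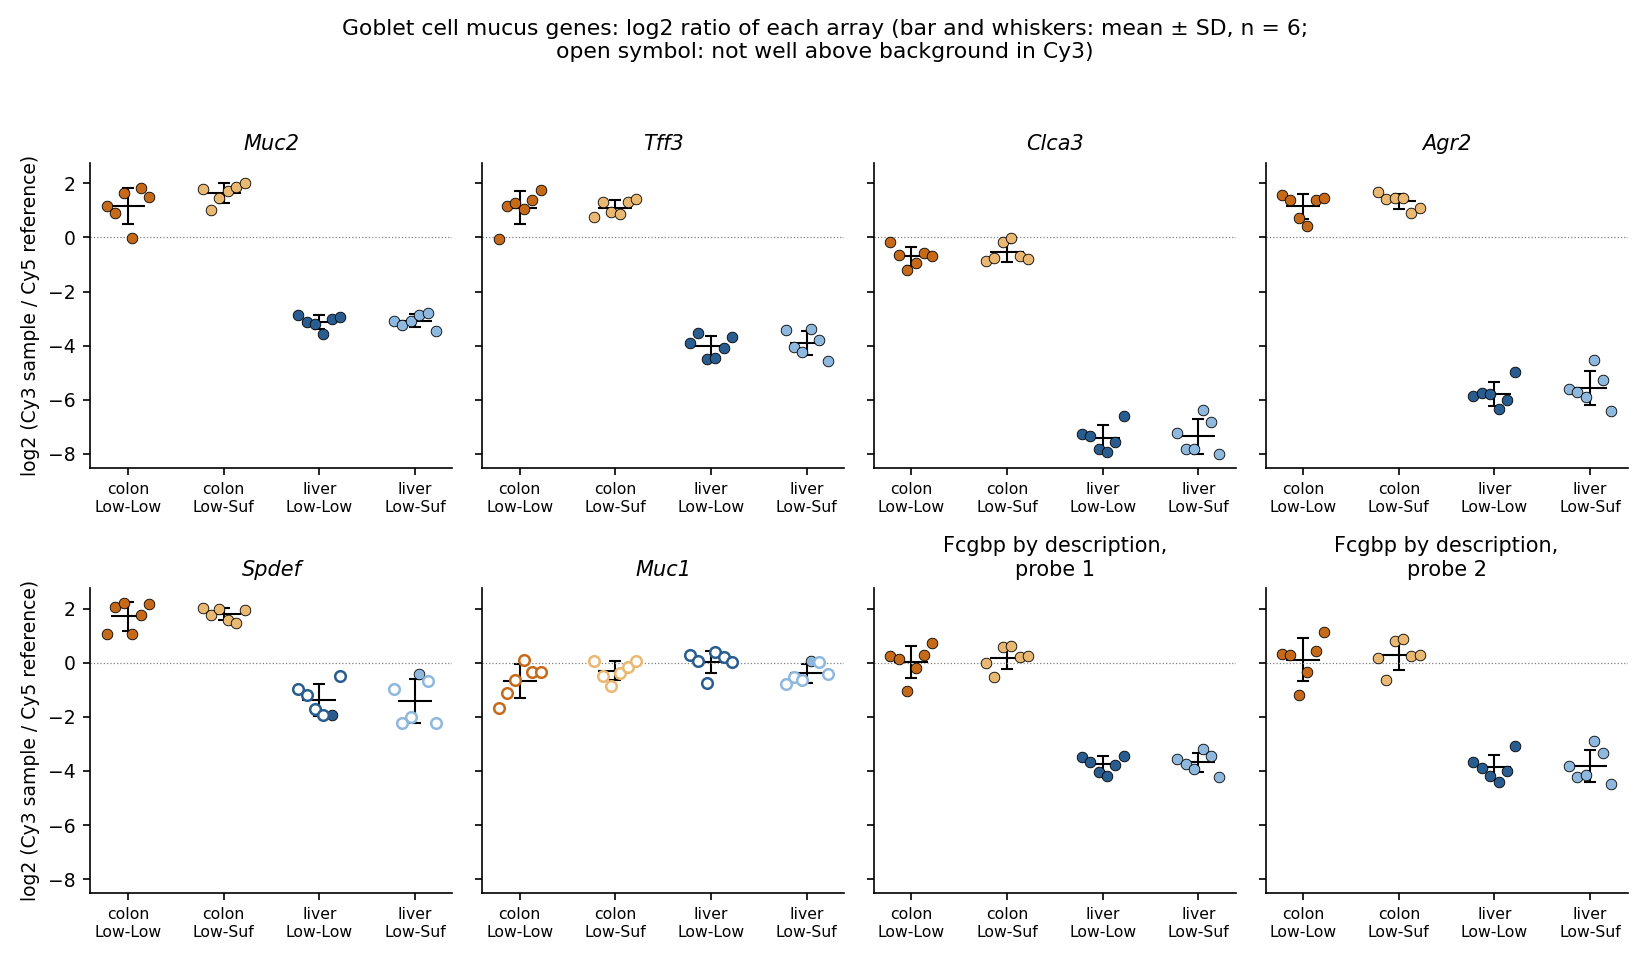
Log2 ratio of Cy3 sample to Cy5 reference (vertical axis) of each member's main probe and of the 2 Fcgbp probes on each of the 24 arrays, by group, with the mean and SD of 6 arrays, where open symbols are arrays on which the probe was not well above background. For Muc2, Tff3, Clca3, Agr2, Spdef and both Fcgbp probes all 12 colons lie above all 12 livers, while Muc1 overlaps and is open on all but 1 array.

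Within mice the picture was the same. Colon minus liver was positive in 12 of 12 mice for Agr2 (6.01 to 7.51), Clca3 (5.90 to 7.64), Tff3 (3.87 to 5.96), Muc2 (3.54 to 5.45) and Spdef (2.03 to 4.14). For each of these 5 genes the two-sided exact sign-flip permutation test over 12 mice gave 0.000488, the smallest P it can give. Colon and liver of a mouse shared a slide, so these are also differences within slides. Between the scan days the difference moved little, from 7.14 to 6.71 for Agr2, 6.92 to 6.59 for Clca3, 4.83 to 5.30 for Tff3, 4.42 to 4.58 for Muc2 and 3.36 to 2.95 for Spdef.

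The second comparison asked whether selenium and folate after weaning changed these genes in the colon. None of the 6 members passed the study's threshold, a difference of over 1.5-fold at an unadjusted P under 0.01, which 0.168% of all probes passed. None had an unadjusted limma P below 0.05 either, against 2.98% of all probes, and no probe on the array passed an adjusted P of 0.05. The estimates of 4 of the 5 members measured in colon lay on the HF-Low-Suf side, as did 19900 of all 41174 probes, and that of Tff3 was at 0. All directions of diet given here follow sample over reference as labelled. Under the study's signs, which run the opposite way, they would be reversed.

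Muc2 had the widest diet difference among the members. Its colons averaged 1.16 ± 0.67 (SD, n = 6) on HF-Low-Low and 1.64 ± 0.36 (SD, n = 6) on HF-Low-Suf, and the groups overlapped between 1.02 and 1.81. The difference was 0.48 ± 0.27 SE, or 1.39-fold, with a 95% interval from 0.94-fold to 2.07-fold (limma adjusted P = 0.9999). The two-sided exact permutation test over the 924 assignments of 12 mice, whose smallest P is 0.00216, gave P = 0.143, and limma gave an unadjusted P of 0.093. HF-Low-Suf was higher on 5 of 6 slides, by -0.18 to 1.76. The widest of these came from the slide with the low HF-Low-Low colon, and without that colon the difference was 0.24. At the other end it was 0.61 without HF-Low-Low replicate 5, and limma gave an unadjusted P below 0.05 in 2 of the 12 fits that left out 1 colon. On the first scan day the difference was 0.18 and on the second 0.77.

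The other members lay closer to 0. Clca3 averaged -0.70 ± 0.34 and -0.55 ± 0.36 (SD, n = 6 each), a 1.11-fold difference with a 95% interval of 0.84-fold to 1.47-fold. Agr2 averaged 1.15 ± 0.47 and 1.34 ± 0.28, a 1.14-fold difference with an interval of 0.84-fold to 1.54-fold. The Spdef colons averaged 1.71 ± 0.53 and 1.80 ± 0.22, which is 1.06-fold with an interval of 0.77-fold to 1.45-fold. Tff3 averaged 1.10 ± 0.61 and 1.09 ± 0.28, so that the estimate was 0.998-fold and the interval 0.70-fold to 1.42-fold. All groups overlapped. For Tff3, Spdef and Clca3 the intervals leave out a change of 1.5-fold in either direction, while those of Muc2 and Agr2 reach past it upwards. Exact permutation P values for these 4 genes lay between 0.418 and 0.996. The Fcgbp probes gave 1.12-fold (interval 0.76 to 1.63) and 1.14-fold (0.70 to 1.85). Muc1 was not well above background in any of the 12 colons and is given no fold.

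**Figure D2:**
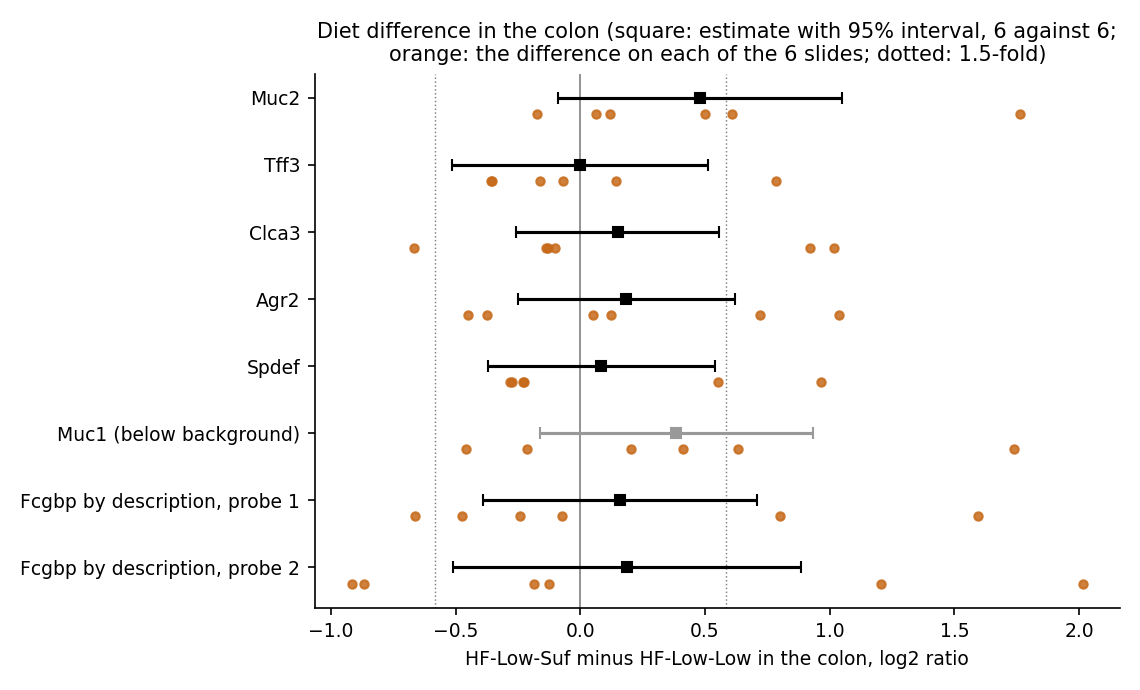
HF-Low-Suf minus HF-Low-Low in the colon on the log2 scale (horizontal axis) for each member's main probe and the 2 Fcgbp probes, with the estimate and its 95% interval (squares), the difference on each of the 6 slides (orange points) and 1.5-fold (dotted lines). Every interval includes 0, and Muc2 has the estimate farthest from 0, at 0.48, with 1 slide at 1.76.

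By group means, Agr2, Clca3, Muc2 and Spdef stood highest in the HF-Low-Suf colon, then in the HF-Low-Low colon, and both livers lay below with no overlap. By medians the colon groups of Clca3 and Spdef stood in the opposite order. The order of the 2 colon groups and that of the 2 liver groups did not exceed the spread between mice in any of them. Tff3 had the HF-Low-Low colon first, with means of 1.10 and 1.09. In the liver the diet differences of Muc2, Tff3, Clca3, Agr2 and Spdef ran from -0.04 to 0.21 and 0 of 6 members passed the study's threshold, against 0.117% of all probes. No member had an unadjusted P below 0.05 in the liver, against 2.13% of all probes. Exact permutation P for these 5 genes in the liver lay between 0.515 and 0.911. The diet effect in the colon minus that in the liver was 0.45 ± 0.29 SE for Muc2 and between -0.13 and 0.12 for Tff3, Clca3, Agr2 and Spdef. No member passed an adjusted P of 0.05 in this test (limma with the mouse as a random block), nor did any probe, while 6.43% of probes had an unadjusted P below 0.05. Among the members Muc1 did so with both probes, in opposite directions (0.81 and -0.53, limma adjusted P = 0.680 and 0.751). Its main probe was well above background on 1 liver array only, and its other probe on none.

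The members varied from colon to colon. Taken from each gene's mean over the 12 colons, replicate 4 of HF-Low-Low was low in Muc2 (-1.44), Agr2 (-0.82), Spdef (-0.71), Clca3 (-0.32) and Fcgbp probe 1 (-0.30), but at -0.06 in Tff3. Under the 6 other preparations of the values, a check added after seeing the data, its Muc2 was the lowest of the 12 colons each time, at -1.98 to -0.88. How far apart it stood depended on the normalisation: the next lowest colon was at -0.51 against its -1.44 with loess, and at -0.74 against its -0.88 with median centring. With median centring it stood at -0.20 in Agr2, -0.37 in Spdef, 0.34 in Clca3, 0.28 in Fcgbp probe 1 and 0.55 in Tff3. Replicate 1 of HF-Low-Low was low in Tff3 (-1.14) and Spdef (-0.69) and high in Clca3 (0.44) and Agr2 (0.32). With median centring both of the latter turned, to -0.19 in Clca3 and -0.28 in Agr2, and all 5 members lay below their means in this colon. Replicate 3 of HF-Low-Low was low in Fcgbp probe 1 (-1.14), Clca3 (-0.56) and Agr2 (-0.52) and high in Spdef (0.46). The 3 colons with the lowest values were thus all HF-Low-Low. In HF-Low-Suf no member deviated by more than 0.60 in either direction, and Fcgbp probe 1 was lowest at -0.63 in replicate 2. This limit depended on the normalisation. With median centring replicate 5 of HF-Low-Suf, the colon with the bright reference channel, stood at 1.27 in Muc2, 1.0 in Tff3 and 0.76 in Clca3. With the Cy3 channel alone replicate 6 stood at 0.82 in Muc2, replicate 4 at 0.75 in Clca3 and replicate 1 at 0.63 in Agr2.

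Among the 5 members measured in colon and Fcgbp probe 1 there were 15 pairs, and 10 of the 15 correlations over 12 colons were positive. Within HF-Low-Low 11 of 15 were positive and within HF-Low-Suf 5 of 15. Clca3 and Fcgbp had the highest (Pearson r = 0.72, permutation P = 0.008, adjusted over the 15 pairs P = 0.120, and Spearman rho = 0.75, P = 0.007, adjusted P = 0.109). Leaving out the 2 colons farthest from the Clca3 median gave r = 0.65, and r was 0.71 and 0.75 within HF-Low-Low and HF-Low-Suf and 0.88 and 0.63 within the scan days. No pair passed the adjustment. Tff3 and Clca3 had the lowest r, -0.49.

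**Figure D3:**
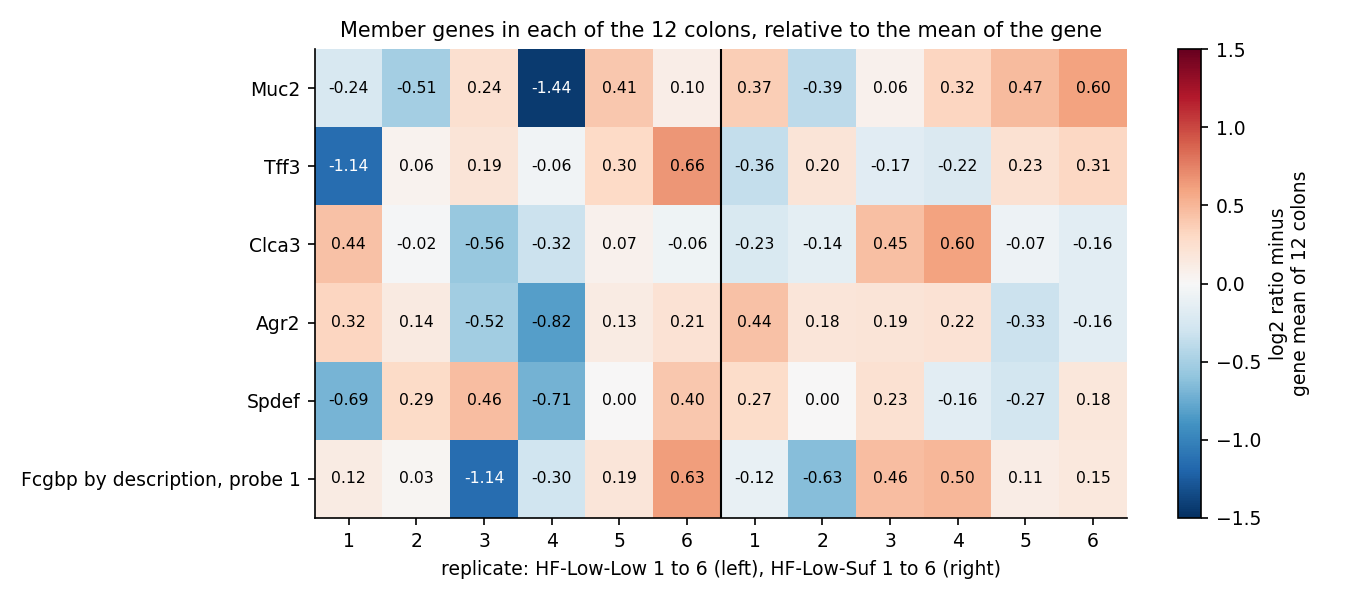
Log2 ratio of 5 members and Fcgbp probe 1 (rows) in each of the 12 colons (columns), as the difference from the gene's mean over the 12 colons, with the value printed in each cell and HF-Low-Low to the left of the line. The 3 deepest cells are Muc2 in HF-Low-Low replicate 4 (-1.44), Tff3 in replicate 1 (-1.14) and Fcgbp in replicate 3 (-1.14) of the same group.

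Genes of the same families lie beside Muc2, Tff3 and Clca3 on their chromosomes. Muc6 and Muc5b, gel-forming mucins, share the stretch of chromosome 7 with Muc2. Muc6, next to it on one side, had a colon minus liver difference of -0.06 ± 0.16 SE, with the probe well above background on 4 colon and 3 liver arrays. Muc5b, 2 genes to the other side, gave -0.02 ± 0.20 SE and was not well above background on any of the 24. Tff2 and Tff1, the stomach trefoil factors next to Tff3 on chromosome 17, gave -0.38 ± 0.20 SE and -0.34 ± 0.22 SE, and neither passed the threshold (limma adjusted P = 0.161 and 0.280). The Tff2 probe was well above background on 1 of 24 arrays. Around Clca3 on chromosome 3, the array's Clca5, Clca6 and Clca4 (now Clca2, Clca4a and Clca3b) gave 0.04 ± 0.15 SE, -0.14 ± 0.19 SE and 0.26 ± 0.14 SE. None of these 7 neighbours passed the threshold. Only Clca6 was well above background on all 24 arrays. Tff1 was so on 5 colon and 7 liver arrays, Clca4 on 6 colon arrays and Clca5 on 1, so the values of the neighbours other than Clca6 lay mostly near background, where a difference could hardly show. The test of the difference between a member and its neighbour was not made, since probes of different genes are not comparable in level.

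**Figure D4:**
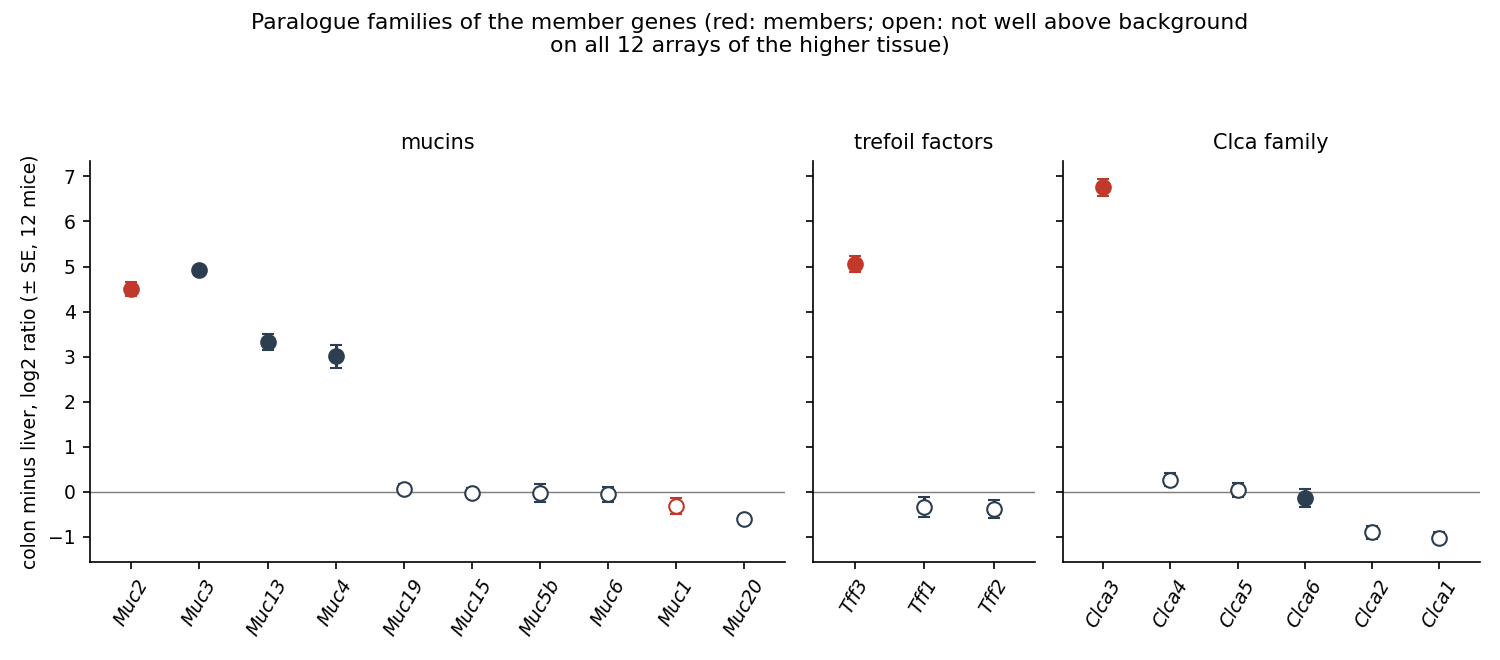
Colon minus liver difference of the log2 ratio with its SE (vertical axis, 12 mice) for mucins, trefoil factors and the Clca family as the array names them, with members in red and open symbols where the probe was not well above background on all 12 arrays of the higher tissue. In each family 1 member stands high (Muc2 4.50, Tff3 5.06, Clca3 6.76), and among the other genes the mucins Muc3, Muc13 and Muc4 do too.

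The wider goblet cell programme was read from 6 lists by role, with 70 of 78 genes on the array and 1 main probe each. By the threshold 37 of the 70 were higher in colon, 10 higher in liver and 23 did not pass, against 12.2% of all probes higher in colon and 11.3% higher in liver. The median difference was 0.99 on the log2 scale.

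Among 8 other mucins, 3 were higher in colon, 1 higher in liver and 4 did not pass. Those higher in colon are membrane mucins of the intestinal surface. Muc3 was 30.1-fold higher (4.91 ± 0.11 SE, limma adjusted P = 3.33e-23) and Muc13 10.0-fold (3.32 ± 0.17 SE, adjusted P = 2.85e-15), both well above background on all 24 arrays. Muc20 was the one higher in liver, just past the threshold. Its probe was well above background on 6 of 12 livers, so the size is uncertain and no fold is given.

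The enzymes that put O-linked sugars on mucins had 15 of 21 genes higher in colon, with none higher in liver and a median difference of 2.10. These enzymes start the chain (the Galnt family), extend it, or cap it. Galnt12, a starting enzyme, was 29.0-fold higher in colon (4.86 ± 0.20 SE, limma adjusted P = 5.86e-17). Galnt3, of the same family, was below background on every liver array and at least 12.5-fold higher in colon (adjusted P = 8.82e-12). Galnt1 and Galnt2, which most tissues use, differed by -0.04 ± 0.11 SE and 0.00 ± 0.10 SE and did not pass.

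Of 9 genes for granule release, 7 were higher in colon and 1 higher in liver, with a median difference of 1.61. Scin (scinderin), which cuts actin filaments at the cell edge, was higher in colon by a fitted log2 difference of 4.12 ± 0.25 SE (limma adjusted P = 1.50e-13) and Bcas1 by 3.30 ± 0.24 SE (adjusted P = 7.27e-12). Both were well above background on 1 of 12 livers, so the sizes are uncertain and no fold is given. Vamp8, a vesicle SNARE used by many secretory cells, was 1.58-fold higher in liver (-0.66 ± 0.09 SE, adjusted P = 5.84e-07).

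Among 6 genes of protein folding, 2 were higher in colon and 2 in liver. Creb3l4, a membrane-bound transcription factor of secretory cells, was 9.94-fold higher in colon (3.31 ± 0.15 SE, limma adjusted P = 2.87e-16). Ern2, the stress sensor found in mucus-secreting epithelium, was higher by a fitted log2 difference of 1.92 ± 0.16 SE (limma adjusted P = 1.66e-10). Its size is uncertain, with 1 of 12 livers well above background. Hspa5, the general chaperone of the endoplasmic reticulum, was 2.0-fold higher in liver (-1.0 ± 0.15 SE, adjusted P = 2.45e-06).

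Other secreted products were divided, with 4 of 13 higher in colon and 4 in liver. Guca2a (guanylin), a peptide that acts on fluid secretion, was 102-fold higher in colon (6.67 ± 0.13 SE, limma adjusted P = 3.91e-24), and Klk1, a kallikrein protease, 21.5-fold (4.43 ± 0.17 SE, adjusted P = 1.23e-17). Ang4, an antimicrobial ribonuclease of the gut, was 4.33-fold higher in liver by its probe (-2.11 ± 0.11 SE, adjusted P = 7.84e-15). Angiogenin genes are close copies of each other, and which of them this probe reads was not tested.

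Of 13 transcription factors and Notch genes of the secretory lineage, 6 were higher in colon and 2 in liver. Klf4, needed for goblet cell differentiation in the colon, was 26.2-fold higher there (4.71 ± 0.14 SE, limma adjusted P = 1.10e-20) and Elf3, an epithelial ETS factor, 5.01-fold (2.32 ± 0.17 SE, adjusted P = 9.66e-12). Foxa2, also a liver factor, was 4.55-fold higher in liver (-2.19 ± 0.16 SE, adjusted P = 5.71e-12).

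**Figure D5:**
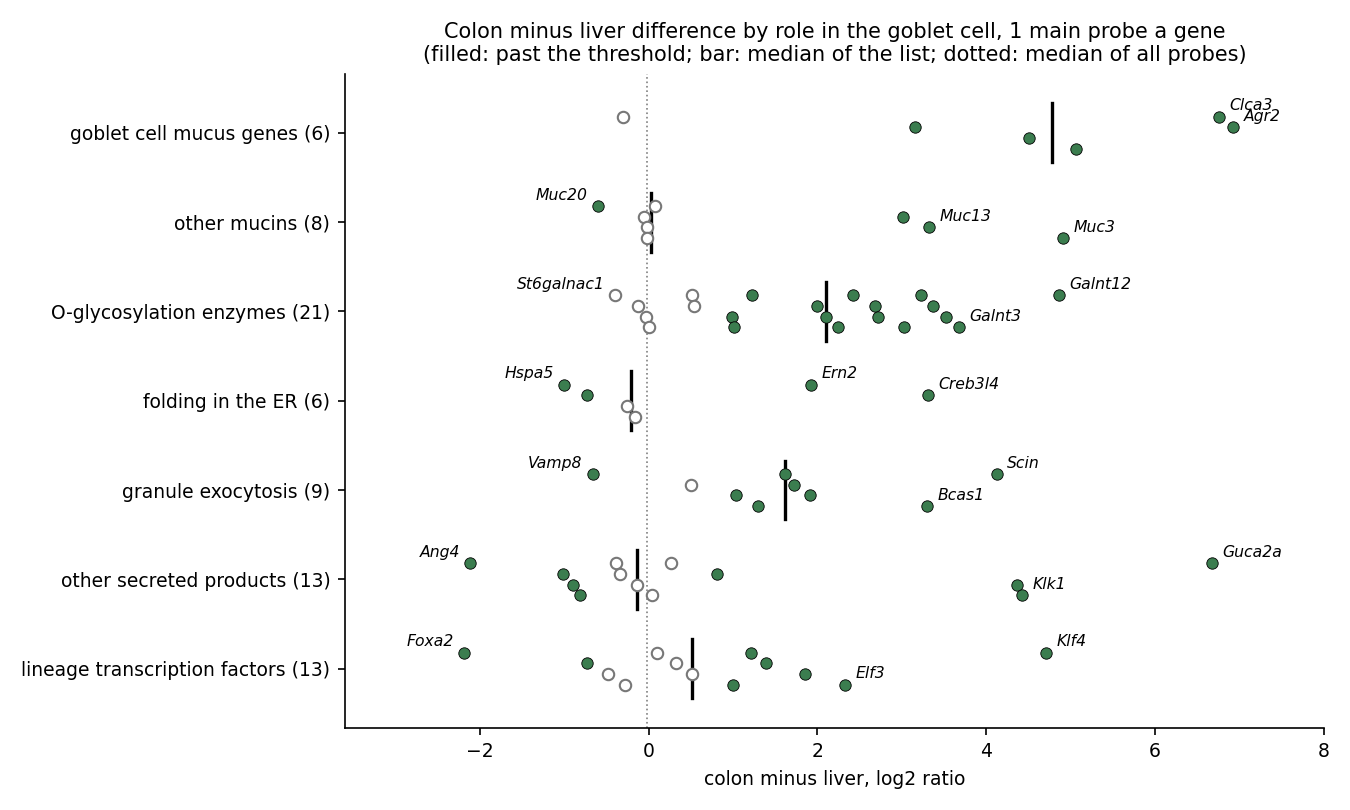
Colon minus liver difference on the log2 scale (horizontal axis) of each gene's main probe, by role in the goblet cell, with filled symbols past the threshold, a bar at the median of each list and a dotted line at the median of all probes. The members and the O-glycosylation enzymes lie furthest to the colon side, with medians of 4.78 and 2.10.

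For diet in the colon, 0 of the 70 genes passed the study's threshold, and 3 had an unadjusted limma P below 0.05, against 0.168% and 2.98% of all probes. The estimates of 51 of the 70 lay on the HF-Low-Suf side, with a median of 0.07 on the log2 scale. Over all probes 19900 of 41174 did, with a median of -0.007. Fut2, the fucosyltransferase that decorates intestinal mucin, was 0.46 ± 0.19 SE higher in HF-Low-Suf (limma adjusted P = 0.9999), with colons from 0.36 to 1.56 on HF-Low-Low and from 1.04 to 1.68 on HF-Low-Suf. Tff2 was 0.46 ± 0.18 SE higher and Muc15 lower (-0.34 ± 0.16 SE), and neither was well above background on at least 11 of the 12 colons. The 4 adipose marker genes were all lower in HF-Low-Suf colons, with a median of -0.47 and mean log2 ratios of 2.20 to 3.40 on HF-Low-Low and 1.2 to 2.96 on HF-Low-Suf. Smooth muscle markers had means of 0.55 to 1.23 and 0.50 to 1.21, and absorptive colonocyte markers of -0.20 to 0.60 and -0.29 to 0.47. Proliferation markers were on the HF-Low-Suf side in 6 of 6 genes (median 0.17), pancreas acinar markers in 6 of 6 (median 0.07) and B and plasma cell markers in 1 of 5 (median -0.14). No gene of these lists passed the study's threshold by its main probe as processed here. The study's own analysis does list Top2a, one of these proliferation markers, as lower with supplementation in the colon at that threshold. That sign is opposite to the one here. Over the 12 colons, 18 correlations of the 9 marker lists with Muc2 and with the mean of the 5 standardised members were computed, and none passed the adjustment. The highest was that of smooth muscle markers with Muc2 (Pearson r = 0.73, permutation P = 0.009, adjusted P = 0.166, and Spearman rho = 0.66, P = 0.024, adjusted P = 0.413). It was 0.71 and 0.96 within HF-Low-Low and HF-Low-Suf and 0.54 and 0.87 within the scan days. Leaving out the 2 colons farthest from the smooth muscle median brought r to 0.39. That step also narrows the range of the markers, so it cannot show whether the relation rests on those colons. The other list with an unadjusted permutation P below 0.05 was that of B and plasma cells against Muc2 (r = -0.58, P = 0.035, adjusted P = 0.244, rho = -0.59, P = 0.048, adjusted P = 0.413), with r = -0.53 without the 2 farthest colons, -0.70 and -0.26 within HF-Low-Low and HF-Low-Suf and -0.21 and -0.86 within the scan days. Hepatocyte markers had r = -0.60 with Muc2 (rho = -0.29, adjusted permutation P = 0.244 and 0.535), which turned to 0.13 without the 2 farthest colons and to 0.49 within HF-Low-Suf, and was -0.82 within HF-Low-Low and 0.17 and -0.96 within the scan days. Adipose markers had r = -0.52 (rho = -0.49, adjusted permutation P = 0.291 and 0.413), with -0.52 without the 2 farthest colons, -0.79 and -0.11 within HF-Low-Low and HF-Low-Suf and -0.07 and -0.60 within the scan days.

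The genes whose pattern over the 12 colons was most like the mean of the 5 standardised members are named as a description, with no test. Among 10706 genes well above background in all colons, the 8 highest had Pearson r of 0.88 to 0.91 (12 colons, the same arrays), where the median gene had -0.03. They were Sidt1 (r = 0.91), Klk1 (0.91), Klk1b3 (0.91), Glg1 (0.91), Glb1 (0.90), Slc12a8 (0.90), Klk1b8 (0.90) and V00829, a kallikrein sequence (0.88). The 4 kallikreins among these 8 are near copies, and their probes cannot be taken as separate genes.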

How the data were processed

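Colon and liver RNA of 12 mice was measured on 24 two-colour Agilent arrays, grouped by tissue and diet from the labels, 6 in each group. The deposited intensity values are the mean spot signals and local background medians that the authors read with Feature Extraction 9.5.3.1, not normalized. The submitters' notes name limma for their own analysis. Processed signals, also deposited by the authors as intensity values after background subtraction and dye normalization in that software, served as an alternative.

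Signals were background corrected here with normexp (offset 50). Of 45018 spots, 1639 control spots were left out, and flagged outlier spots were set aside. Loess within arrays followed (limma 3.58.1, R 4.3.3), and spots were averaged to 41174 probes. Where a gene had several probes, the brightest on average was its main probe. A probe was called well above background where Feature Extraction marked as many of its Cy3 spots as it left unmarked, or more. A probe that was dim on every array of 1 tissue got a lower bound, from Cy3 after loess and Aquantile with each dim array raised to its lowest signal among probes well above background. Array number limits precision.

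Tissues were compared with lmFit and eBayes over 24 arrays, and diets over the 12 arrays of a tissue at the study's threshold, both with Benjamini-Hochberg adjustment over all probes. The difference of diet effects was fitted with mice as random blocks (duplicateCorrelation with statmod 1.5.0, consensus correlation 0.158). The script was tested on simulated data. Replicates were separate mice. Same-numbered colon and liver samples of a diet came from the same mouse, and their deviations correlated at -0.12 to 0.45, above 0.1 in 7 of 12. The members and lists were chosen with earlier results of these data known. The text names all members, from each role list the 2 genes with the largest positive and the 1 with the largest negative tissue difference that passed the threshold with a signal over background on every array of the higher tissue, pathway genes with an unadjusted diet P below 0.05 in colon or next to a member, and the 8 genes most like the members. Galnt1, Galnt2 and Muc20 were named after their values were seen. Of 130 member and list genes on the array, 116 had an accession in the RefSeq table of names, and 11 of these had another current symbol.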

Additional observations from a re-analysis of the deposited data

Results flagged for a closer look

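The main Muc1 probe in liver HF-Low-Low replicate 3 stood apart from its group, at a log2 ratio of -0.76 where the other 5 livers lay between 0.03 and 0.40, a gap of 0.685 of the group's range. The probe was not well above background on that array or on the other 5. This was 1 of 36 groups tested for such gaps (4 groups for each of 9 probes), where chance alone gives about 1.8.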

How the results depend on the processing

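Of 810 values recomputed under other settings, 686 for single genes and 113 counts were counted as the same and kept their side of the threshold. Values that passed no test could change sign and still be counted so. The Tff3 diet difference in colon, for example, ran from -0.19 to 0.19. The count of members higher in colon was 5 in every setting tried, and the count past the diet threshold in colon was 0 in every one. Where a value that passed no test changed sign, it was counted as turned only if it moved by more than its SE. Muc1, whose main probe was well above background on 1 liver array only, turned in 6 cases. With the signals processed by Feature Extraction its diet difference in colon was -0.29 and its diet effect in colon minus liver -0.058. With its other probe the diet difference was -0.19 in colon and 0.34 in liver, and the diet effect in colon minus liver -0.53. Within HF-Low-Suf its colon minus liver difference was 0.10. Spdef with the processed signals gave 0.37 for diet in liver and -0.31 for the diet effect in colon minus that in liver. Leaving out each replicate in turn, the count of members past the diet threshold in liver ran from 0 to 1. The 1 was Muc1 without HF-Low-Low replicate 3 (-0.59). The cause of these changes was not tested.

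With the slide, which is the replicate number, as a block, the Muc2 diet difference in colon was 0.48 ± 0.23 SE, and with the mouse as a block the Muc2 tissue difference was 4.50 ± 0.13 SE. The blocks changed no call. The 2 colons of a slide came from different mice, with deviations correlated at -0.38 to 0.53, above 0.1 in 4 of 6 slides. In 1 fit over all 24 arrays the Muc2 diet difference had an unadjusted P of 0.047. Without the arrays with a bright reference channel, a setting chosen after seeing the data, as was the slide block for tissue, the counts were again 5 and 0. Likeness to Muc2 alone gave 0 of the 8 genes most like all members. Muc1 had no value where dim probes were left out, nor had Spdef in the liver.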
